A study of Mus musculus with 8 samples.

Results

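The 10 genes described here belong to the integrated stress response and to its neighbour in the endoplasmic reticulum (ER), the unfolded protein response. They were measured by RNA-seq in whole subcutaneous tumors of Lewis lung carcinoma (LLC) cells, a mouse lung cancer line. The members were chosen by symbol for their known roles, with earlier results of these data known, as Eif2ak3, Hspa5, Xbp1, Atf4, Atf3, Ddit3, Ppp1r15a, Trib3, Asns and Chac1, and the rule itself uses symbols and no measured value. Of the 55487 rows of the count table, 11 carried these symbols, since Ddit3 had 2 identifiers. The second Ddit3 row, ENSMUSG00000116429.1, had 0 counts in all 8 libraries, and its 105 exonic bases lie within those of the other Ddit3 row. Of the 16061 genes left by the count filter for testing, 10 were the members, so none was lost.

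LLC cells, wild-type or Ago2 knock-out (ΔAgo2), were implanted under the skin of syngeneic C57BL/6J mice, which were female and 6 to 8 weeks old when bought, and the tumors were taken 12 days later. Each group held 4 tumors from separate mice, with a single batch label throughout. Ago2 is the Argonaute protein that binds small RNAs and represses or cuts their target transcripts. The knock-out was made in the cancer cells with a lentiviral CRISPR guide, puromycin selection and sorting of single cells, so the ΔAgo2 line is 1 clone, while the host cells of each tumor kept Ago2. Whether the wild-type line carried a control vector is not given in the sources used here. Whole tumors hold host cells besides cancer cells, and in such RNA fewer cells of a type and less RNA per cell cannot be told apart.

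In the integrated stress response, kinases that sense different stresses phosphorylate the translation factor eIF2. General translation then falls, and a few messages, above all that of the transcription factor ATF4, are translated more. ATF4 and its partners induce genes for amino acid synthesis and transport, tRNA charging, redox balance and, under lasting stress, cell death. One of the kinases, PERK, sits in the ER membrane with the sensors ATF6 and IRE1, which drive chaperone genes when unfolded protein accumulates. Tumors are known to use these pathways under shortage of nutrients and oxygen. ATF4 is controlled mainly at translation and eIF2 by phosphorylation, neither of which RNA-seq reads.

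The regulatory elements through which these factors act are short, and 6 of the 10 promoters hold one of them. RefSeq promoter windows on GRCm38.p6, from 250 bases before to 50 after the start of transcription, were searched on both strands for the core of the C/EBP-ATF response element, TGATGNAA, which ATF4 binds with a C/EBP partner. They were searched also for the ER stress response element, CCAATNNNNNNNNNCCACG, and for the cAMP response element, TGACGTCA, which ATF and CREB factors bind. The C/EBP-ATF core was found in 4 of 10 members and in 3.97% of 32851 windows of all genes. The ER stress element was found in Hspa5 alone among the members and in 0.119% of all windows, and the cAMP element in Ppp1r15a alone among them and in 1.79% of all windows. The stretches below are shown because they carry these elements. Each runs 5′ to 3′ on the gene's strand with the matched element in capitals, and those that lie in or next to an annotated first exon are cut to 30 bases.
Asns, chr6:7693214-7693243, minus strand: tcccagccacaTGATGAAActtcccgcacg
Trib3, chr2:152344028-152344057, minus strand: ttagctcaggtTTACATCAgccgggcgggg
Atf3, chr1:191183341-191183583, minus strand: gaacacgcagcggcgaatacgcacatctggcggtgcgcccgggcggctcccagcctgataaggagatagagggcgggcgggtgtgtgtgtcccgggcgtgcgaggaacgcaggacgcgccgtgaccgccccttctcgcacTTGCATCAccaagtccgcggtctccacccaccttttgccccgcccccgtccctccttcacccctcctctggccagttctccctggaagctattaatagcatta
Chac1, chr2:119350992-119351228, plus strand: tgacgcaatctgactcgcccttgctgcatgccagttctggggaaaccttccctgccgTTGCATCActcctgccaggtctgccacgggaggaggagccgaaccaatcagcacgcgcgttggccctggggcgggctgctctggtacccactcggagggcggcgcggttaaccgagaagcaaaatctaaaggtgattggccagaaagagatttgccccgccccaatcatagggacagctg
Hspa5, chr2:34772020-34772049, plus strand: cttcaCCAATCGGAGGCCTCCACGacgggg
Ppp1r15a, chr7:45526262-45526291, minus strand: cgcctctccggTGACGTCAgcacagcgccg

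The C/EBP-ATF core of Asns begins 23 bases before the RefSeq start, that of Atf3 110 bases before and that of Chac1 193 bases before. In Trib3 it begins 14 bases after the RefSeq start, outside the exons of the GENCODE annotation used for the counts. The ER stress element of Hspa5 begins 65 bases before the RefSeq start, and the GENCODE annotation places this stretch, and the core of Asns, inside exon bases of their genes. In Atf3 and Chac1 the capitals read TTGCATCA, the core as written on the opposite strand. A match of letters describes the sequence and shows no binding in these tumors.

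None of the 10 genes differed between ΔAgo2 and wild-type tumors at an adjusted p under 0.05. Genes were tested by quasi-likelihood in edgeR, with p-values adjusted by Benjamini-Hochberg over all genes tested. In the whole table it called 560 genes, which is 3.49% of those tested, with 1.36% higher and 2.12% lower in ΔAgo2 tumors. No member reached an unadjusted p under 0.05, as 26.7% of all tested genes did, and no member had groups that did not overlap, as 16.4% of them had. The log2 fold change was above 0 for 2 members, Eif2ak3 and Hspa5, and below 0 for 8, with a median of -0.19 beside 0.04 over all genes tested. The 95% interval given below for each gene holds the differences that remain compatible with these 4 tumors a group.

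The depth of the libraries was uneven. Total counts ran from 7903288 in wild-type tumor 4 to 268564145 in ΔAgo2 tumor 4. Wild-type tumor 4 also had the highest GC content weighted by counts, 53.0%, followed by wild-type tumor 2 at 52.6%, with 49.9% in the lowest library. The same tumor 4 had the largest share of counts on Gm42418, a gene that overlaps ribosomal RNA sequence. That share was 1.37%, against 0.618% in wild-type tumor 2 and less elsewhere. Across genes, log2 fold change and GC content had a Spearman correlation of -0.56, over 16061 genes that share libraries and are not independent. Ago2, the targeted gene, had 130, 195, 151.3 and 138 CPM (counts scaled to a common library total, with TMM factors) in wild-type tumors 1 to 4. It had 118, 355, 215 and 270 CPM in ΔAgo2 tumors 1 to 4. Its log2 fold change was 0.64 ± 0.30 (SE, adjusted p = 0.205), so its RNA level did not check the knock-out label.

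**Figure D1:**
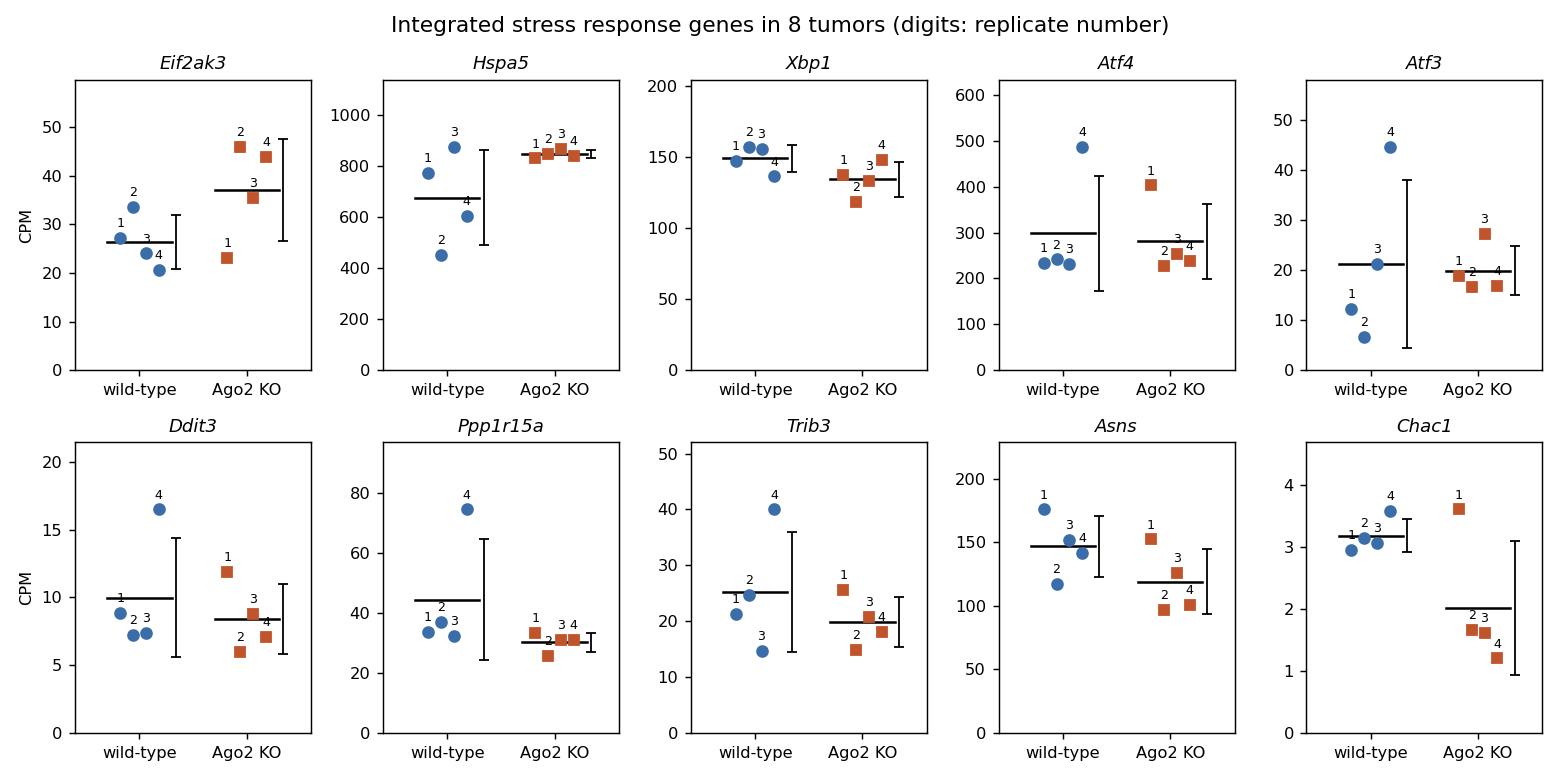
CPM of each gene (linear axis from 0) in 4 wild-type tumors (circles) and 4 Ago2 knock-out tumors (squares), with the replicate number at each point, the mean as a line and 1 SD as a bar. The point of wild-type tumor 4 is the highest for Atf4, Atf3, Ddit3, Ppp1r15a and Trib3, and the groups overlap for every gene.

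Eif2ak3 (ENSMUSG00000031668.14, chr6:70844515-70905245, plus strand on GRCm38) encodes PERK, the eIF2 kinase of the ER, and was the member with the largest positive difference. Its level was 27.2, 33.5, 24.0 and 20.6 CPM across wild-type tumors 1 to 4. In ΔAgo2 tumors 1 to 4 it was 23.0, 45.9, 35.4 and 43.8 CPM. ΔAgo2 tumors 2, 3 and 4 stood above all wild-type tumors, while ΔAgo2 tumor 1 fell among them. The group means were 26.3 ± 5.46 and 37.0 ± 10.4 CPM (SD, n = 4 each), and the log2 fold change was 0.49 ± 0.26 (SE), with a 95% interval from -0.08 to 1.06 and an adjusted p of 0.241 in edgeR. Limma voom with quality weights per sample called it (0.65, adjusted p = 0.0200), and none of the other alternatives did. Over the whole table limma voom called 4476 of 16061 genes. Of its exonic bases, 485 are shared with Gm43292 on the opposite strand, whose reads may or may not have been counted apart, since the strand setting is not given in the sources used here.

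Hspa5 (ENSMUSG00000026864.13, chr2:34771970-34777547, plus strand) encodes BiP, the ER chaperone that holds the sensors inactive until unfolded protein draws it away, and was the most abundant member per length. Wild-type tumors 1 to 4 had 775, 453, 877 and 606 CPM. ΔAgo2 tumors 1 to 4 had 831, 849, 868 and 839 CPM. The ΔAgo2 tumors lay within a narrow band near the top of the wild-type range, with a coefficient of variation of 1.89% against 27.6% in wild-type tumors. Over the genes tested the median coefficient was 31.9% in wild-type and 25.6% in ΔAgo2 tumors, and the difference in spread was not tested. Means were 678 ± 187 and 847 ± 16.0 CPM (SD, n = 4 each), with a log2 fold change of 0.32 ± 0.23 (SE), a 95% interval from -0.19 to 0.83 and an edgeR adjusted p of 0.380. With the trend on GC content removed from each library the log2 fold change was -0.04, and the ΔAgo2 levels then ran from 666 to 831 CPM and the wild-type levels from 576 to 909 CPM. The narrow band was thus absent on that scale.

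Xbp1 (ENSMUSG00000020484.18, chr11:5520659-5525893, plus strand), the factor whose message is spliced by IRE1 and which drives ER chaperone and degradation genes, was the steadiest member. It was at 147, 157.5, 156 and 137 CPM across wild-type tumors 1 to 4. It was at 138, 118, 133 and 148.5 CPM in ΔAgo2 tumors 1 to 4. The highest tumor had 1.33 times the level of the lowest, and the groups overlapped. Its log2 fold change was -0.15 ± 0.17 (SE), with a 95% interval from -0.52 to 0.22 and an edgeR adjusted p of 0.579. Gene counts do not separate the spliced from the unspliced message, so IRE1 activity was not read.

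Atf4 (ENSMUSG00000042406.8, chr15:80255184-80257541, plus strand), the central transcription factor of the pathway, differed far more in CPM between tumors of a group than between the groups. In wild-type tumors 1 to 4 its level was 234, 241, 232 and 487 CPM. In ΔAgo2 tumors 1 to 4 it was 403, 228, 254 and 237 CPM. A single tumor in each group, wild-type 4 and ΔAgo2 1, stood well above the other 3, which in both groups lay between 228 and 254 CPM. The group means were 299 ± 126 and 281 ± 82.2 CPM (SD, n = 4 each), and the log2 fold change was -0.09 ± 0.30 (SE), with a 95% interval from -0.75 to 0.57 and an edgeR adjusted p of 0.869. Leaving out wild-type tumor 4 gave 0.26, leaving out ΔAgo2 tumor 1 gave -0.32, and leaving out both gave 0.01, none of them past the threshold.

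Atf3 (ENSMUSG00000026628.13, chr1:191170296-191218039, minus strand), a stress-induced factor that acts with ATF4 and also answers growth signals as an early gene, had the widest range of the members. Wild-type tumors 1 to 4 had 12.3, 6.72, 21.2 and 44.7 CPM. ΔAgo2 tumors 1 to 4 had 18.9, 16.7, 27.2 and 16.9 CPM. Wild-type tumors held both the lowest and the highest value, 6.65-fold apart, with the ΔAgo2 values between them. On the log2 scale the difference was -0.07 ± 0.48 (SE), with a 95% interval from -1.12 to 0.98 and an edgeR adjusted p of 0.937. Leaving out wild-type tumor 4 gave 0.58.

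Ddit3 (ENSMUSG00000025408.15, chr10:127290774-127296288, plus strand) encodes CHOP, the factor linked to cell death under lasting ER stress. It was at 8.84, 7.20, 7.38 and 16.5 CPM across wild-type tumors 1 to 4. In ΔAgo2 tumors 1 to 4 it was at 11.9, 5.97, 8.78 and 7.10 CPM. In CPM the order of the tumors followed Atf4 at the top, with wild-type 4 first and ΔAgo2 1 next. Ddit3 differed by a log2 fold change of -0.22 ± 0.33 (SE), with a 95% interval from -0.96 to 0.51 and an edgeR adjusted p of 0.687. Leaving out wild-type tumor 4 gave 0.12. Counts behind these values ran from 115 in wild-type tumor 4 to 2028 in ΔAgo2 tumor 4. Ddit3 shares 68 exonic bases with Mars and 13 with Gm4189, both on the opposite strand.

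Ppp1r15a (ENSMUSG00000040435.12, chr7:45522916-45526268, minus strand) encodes GADD34, which brings a phosphatase to eIF2 and so closes the response. Its level was 33.6, 36.9, 32.4 and 74.5 CPM across wild-type tumors 1 to 4. ΔAgo2 tumors 1 to 4 had 33.3, 25.7, 30.9 and 31.0 CPM. Wild-type tumor 4 had more than any other tumor, and the remaining wild-type tumors overlapped with ΔAgo2 tumor 1 only. The means were 44.4 ± 20.2 and 30.2 ± 3.23 CPM (SD, n = 4 each), and the log2 fold change was -0.55 ± 0.28 (SE), with a 95% interval from -1.17 to 0.07 and an edgeR adjusted p of 0.233. When wild-type tumor 4 was left out the value was -0.18. Ppp1r15a shares 12 exonic bases with Tulp2 on the opposite strand.

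Trib3 (ENSMUSG00000032715.9, chr2:152337422-152344032, minus strand), a pseudokinase that ATF4 and CHOP induce and that damps ATF4, had 21.3, 24.7, 14.7 and 40.0 CPM across wild-type tumors 1 to 4. In ΔAgo2 tumors 1 to 4 it had 25.5, 14.9, 20.7 and 18.1 CPM. In CPM wild-type tumor 4 was again the highest, ΔAgo2 tumor 1 was second, and the other 6 tumors of both groups were mixed. Its log2 fold change was -0.34 ± 0.31 (SE), with a 95% interval from -1.01 to 0.34 and an edgeR adjusted p of 0.487. Leaving out wild-type tumor 4 gave -0.03.

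Asns (ENSMUSG00000029752.12, chr6:7675169-7693254, minus strand) encodes asparagine synthetase, the classical amino acid response gene. It was at 176, 117, 151.9 and 141 CPM across wild-type tumors 1 to 4. In ΔAgo2 tumors 1 to 4 it was at 152.2, 96.8, 126 and 101 CPM. Wild-type tumor 1 was the highest and ΔAgo2 tumor 2 the lowest, and wild-type tumor 4, which was the highest for Atf4, Atf3 and Ddit3, lay in the middle. The fitted log2 fold change was -0.30 ± 0.21 (SE), with a 95% interval from -0.77 to 0.17 and an edgeR adjusted p of 0.369. In limma voom, which called 4476 of 16061 genes, it was -0.58 with an adjusted p of 0.0217, the only alternative that called it.

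Chac1 (ENSMUSG00000027313.3, chr2:119351229-119354381, plus strand), an enzyme that degrades glutathione and a late target of ATF4, had the most negative difference of the members and the lowest level per length. Wild-type tumors 1 to 4 had 2.96, 3.15, 3.07 and 3.58 CPM, the last from 25 counts. ΔAgo2 tumors 1 to 4 had 3.61, 1.66, 1.61 and 1.20 CPM, the last from 344 counts. ΔAgo2 tumors 2, 3 and 4 lay below every wild-type tumor. In CPM ΔAgo2 tumor 1 lay above them all, though only just, at 3.61 against 3.58 in wild-type tumor 4. The means were 3.19 ± 0.27 and 2.02 ± 1.08 CPM (SD, n = 4 each), and the log2 fold change was -0.66 ± 0.38 (SE), with a 95% interval from -1.49 to 0.18 and an edgeR adjusted p of 0.283. Leaving out ΔAgo2 tumor 1 moved it to -1.10 (adjusted p = 0.0463), and limma voom gave -1.21 (adjusted p = 0.00652). Leaving out wild-type tumor 4 too gave -1.05 (adjusted p = 0.0606), and removing the GC trend gave -0.30 (adjusted p = 0.643).

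**Figure D2:**
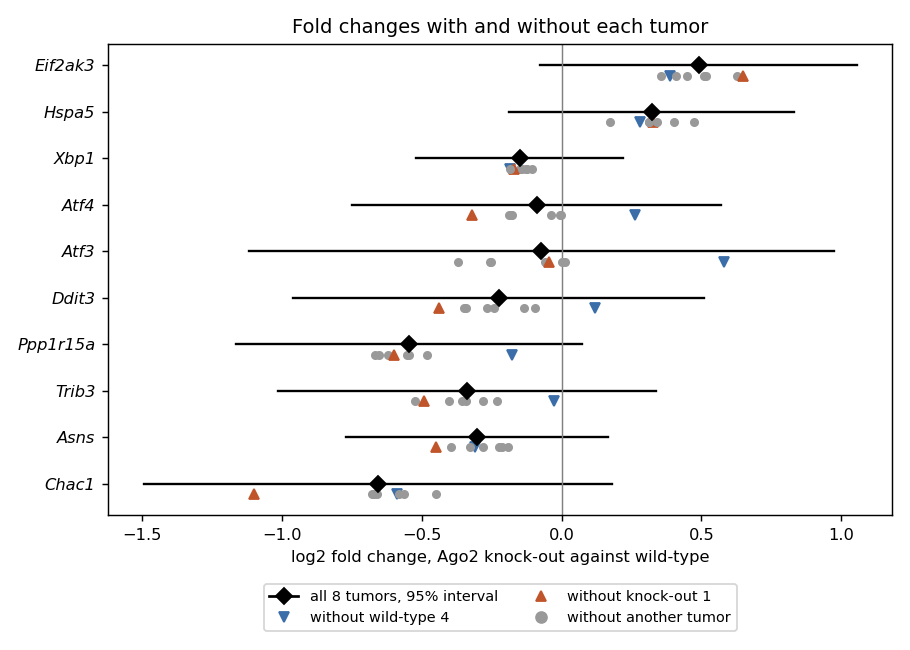
Log2 fold change of each gene, ΔAgo2 against wild-type tumors, with its 95% interval (diamonds and lines), and under each the value when 1 tumor was left out. Without wild-type tumor 4 (downward triangles) Atf4, Atf3 and Ddit3 lie above 0, at 0.26, 0.58 and 0.12, and without ΔAgo2 tumor 1 (upward triangles) Chac1 lies at -1.10.

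Most genes of the ATF4 branch had their highest level in the same tumor. Wild-type tumor 4 had the highest CPM of all 8 tumors for 5 members, Atf4, Atf3, Ddit3, Ppp1r15a and Trib3, while it was the highest for 21.8% of all genes tested and the lowest for 27.7%. It was also the lowest of the 8 tumors for Eif2ak3. Relative to each gene's mean log2 CPM over 8 tumors, it stood 0.81 above for Atf4, 0.91 for Ddit3, 0.90 for Trib3, 1.08 for Ppp1r15a and 1.31 for Atf3, against 0.12 for Asns and 0.56 for Chac1. In CPM ΔAgo2 tumor 1 was second for Atf4, Ddit3, Trib3 and Asns and first for Chac1. Of these ranks only that of Atf4 held in TPM. For Asns ΔAgo2 tumor 1 was at 122 TPM, where only wild-type tumor 4 was lower, at 104 TPM. ΔAgo2 tumor 2 had the lowest CPM for 5 members, Atf4, Ddit3, Ppp1r15a, Asns and Xbp1, and the highest for Eif2ak3. Of all genes tested it was the lowest for 18.1% and the highest for 24.4%. In TPM another tumor was the lowest for each of these 5 members, while Eif2ak3 was still highest in ΔAgo2 tumor 2. After the GC trend was removed from each library, wild-type tumor 4 was still the highest for 5 members, now Atf3, Ddit3, Ppp1r15a, Asns and Hspa5, and Atf4 was highest in ΔAgo2 tumor 1, at 404 CPM against 381 in wild-type tumor 4. Wild-type tumor 4 was also the extreme in depth, GC content and Gm42418 share. Wild-type tumor 2 came next in GC content, at 52.6%, and in Gm42418 share, at 0.618%. Its Atf4 level was 241 CPM, and it was the lowest tumor for Atf3. ΔAgo2 tumor 1, second for Atf4, had a GC content of 51.2%. The part of these properties in the values of wild-type tumor 4 was not tested.

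**Figure D3:**
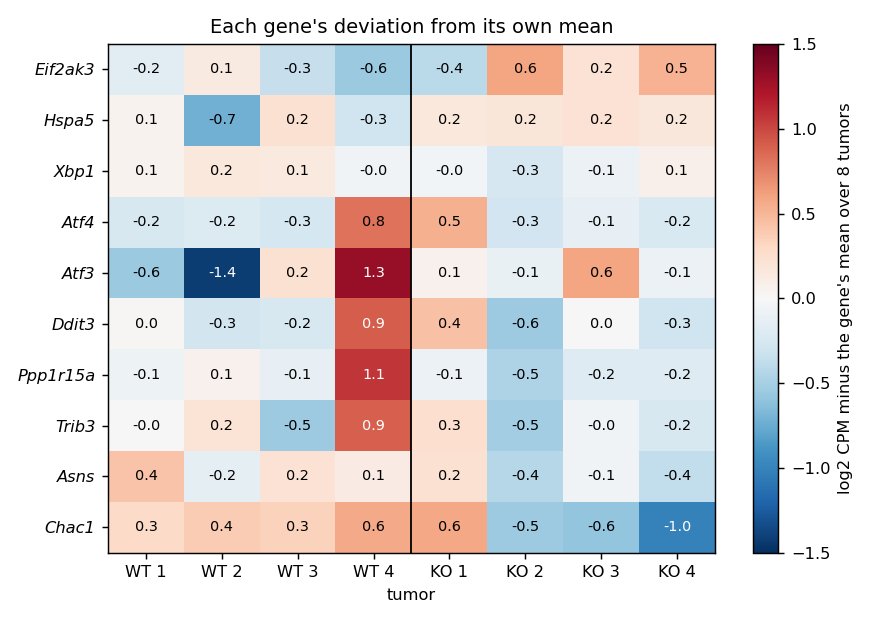
Log2 CPM minus the gene's own mean over 8 tumors, with wild-type (WT) tumors left and Ago2 knock-out (KO) tumors right of the line and the value in each cell. The column of wild-type tumor 4 is positive for the 5 genes Atf4, Atf3, Ddit3, Ppp1r15a and Trib3, from 0.81 to 1.31, and negative for Eif2ak3, at -0.56.

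Immediate early genes, which rise within minutes of a stimulus, moved with that tumor as well. The summed level of 14 of them was 2190 CPM in wild-type tumor 4 and between 831 and 1138 CPM in the other 7 tumors. Their median log2 fold change was -0.59, with 2 above and 12 below 0 and 1 called, Klf6, at 1.15 ± 0.27 (SE, edgeR adjusted p = 0.0447). Klf6 is a zinc finger factor of the early response, and its direction was opposite to that of most of the list. The call held in 9 of 21 alternatives and was lost with total counts (adjusted p = 0.0515), with the replicate block (adjusted p = 0.174), and with the GC trend removed, where Klf6 was at 0.48 (adjusted p = 0.211). It was also lost without any one of wild-type tumors 1, 2 and 4 or of ΔAgo2 tumors 2, 3 and 4. Cytosolic heat shock genes gave no call among 10, a median of -0.20, and the lowest adjusted p for Hspa1a, an inducible Hsp70, and Bag3, its cochaperone, at log2 fold changes of -1.53 and -0.47 with edgeR adjusted p of 0.128 and 0.137. Hspa1a was at -0.49 in limma voom. Among 8 hypoxia-induced genes none was called and the median was 0.04, with Car9 (carbonic anhydrase) at 0.69 and Pdk1 (pyruvate dehydrogenase kinase) at 0.53. The part of this tumor's early gene level in the values of the 10 genes was not tested.

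Among the other sensors 4 of 5 were above 0, as Eif2ak3 was, without a call. Atf6, the ER sensor that is cut in the Golgi to release a transcription factor, had levels of 70.6, 48.0, 67.0 and 31.5 CPM in the wild-type group. In ΔAgo2 tumors 1 to 4 it was at 70.7, 177, 118 and 168 CPM. All ΔAgo2 tumors were above all wild-type tumors, although ΔAgo2 tumor 1 exceeded wild-type tumor 1 by less than 1 CPM. The log2 fold change was 1.29 ± 0.33 (SE, edgeR adjusted p = 0.0594), and 8 of 21 alternatives put it past the threshold. Eif2ak2, the kinase PKR that senses double-stranded RNA and is itself induced by interferon, was at 0.91 ± 0.36 (SE, adjusted p = 0.147). Removing the GC trend moved Eif2ak2 to 0.41. Eif2ak4, the amino acid sensor GCN2, was at 0.37, Ern1, which encodes IRE1, at 0.12, and Eif2ak1, the heme-regulated kinase HRI, at -0.02. The median of the 5 was 0.37.

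The substrate and its exchange factor gave no call among 9 genes. The median was -0.03, with 4 above and 5 below 0. The lowest adjusted p belonged to Ppp1r15b, which encodes the constitutive partner of the eIF2 phosphatase, at 0.50 ± 0.20 (SE, adjusted p = 0.146), and to Eif2b5, the catalytic subunit of the exchange factor eIF2B, at -0.51 ± 0.20 (SE, adjusted p = 0.148). The 3 eIF2 subunits lay on the positive side and the 5 eIF2B subunits on the negative side, which is a description of uncalled values. The eIF2 subunits had a GC content of 38.7% to 44.1% and the eIF2B subunits of 46.8% to 56.8%. Across all genes log2 fold change and GC content had a Spearman correlation of -0.56. The part of GC content in this split was not tested.

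The amino acid genes under ATF4 were below 0 for 12 of 18, with a median log2 fold change of -0.32 and no call. Unadjusted p was under 0.05 for 7 of the 18, beside 26.7% of all genes tested. Of these 7, Slc7a1 and Slc38a2, amino acid transporters named after their values were seen, lay above 0, at 0.80 and 0.87. Shmt2, the mitochondrial serine hydroxymethyltransferase, was at 363, 571, 321 and 598 CPM in wild-type tumors and at 275, 192, 244 and 180 CPM in ΔAgo2 tumors 1 to 4. The groups did not overlap, and the log2 fold change was -1.05 ± 0.26 (SE, edgeR adjusted p = 0.0520), past the threshold in 8 of 21 alternatives. Removing the GC trend moved Shmt2 to -0.60, its smallest difference over the alternatives. Aldh18a1, which makes the precursor of proline, was at 193, 239, 174 and 173 CPM in wild-type tumors and at 82.5, 122, 141 and 112 CPM in ΔAgo2 tumors 1 to 4, at -0.77 ± 0.21 (SE, adjusted p = 0.0709). The list did not move one way, and its range ran from -1.05 to 0.87.

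The remaining downstream lists were flat or mixed. Cytosolic aminoacyl-tRNA synthetases, which charge tRNA and are ATF4 targets in cultured cells, split into 6 above and 6 below 0 with a median of 0.02, and no gene of 12 was called. Sars, at -0.53, and Wars, at -0.33, had the lowest adjusted p, 0.156 and 0.234. The promoter windows of 5 of 7 synthetase genes with a window held the C/EBP-ATF core, namely Aars, Gars, Iars, Tars and Yars, which is beside 3.97% of all windows. Stress regulators and effectors downstream of ATF4 had 11 of 12 genes tested, 3 above and 8 below 0, a median of -0.23 and no call. Vldlr, a lipoprotein receptor, was at -1.61 ± 0.54 (SE, adjusted p = 0.103), and Atf5, a relative of Atf4, was at -0.89 ± 0.33 (SE, adjusted p = 0.129). Removing the GC trend moved Atf5 to -0.21 (adjusted p = 0.528), and limma on log2(TPM + 1) moved Vldlr to -0.50.

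ER chaperones and ER-associated degradation genes had 19 of 20 genes tested, 12 above and 7 below 0, a median of 0.19 and no call. Dnajb9 and Dnajc3, cochaperones of BiP, had the lowest adjusted p of this list. Dnajb9 was at 28.1, 15.1, 31.4 and 14.6 CPM in wild-type tumors and at 32.6, 42.1, 35.3 and 45.8 CPM in ΔAgo2 tumors 1 to 4, so the groups did not overlap, with a log2 fold change of 0.80 ± 0.28 (SE, edgeR adjusted p = 0.117). Dnajc3 was at 0.70 ± 0.29 (SE, adjusted p = 0.160). Removing the GC trend lowered these values to 0.13 and 0.17. Promoter windows of 8 of 17 genes of this list held the ER stress element found in Hspa5, beside 0.119% of all windows.

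**Figure D4:**
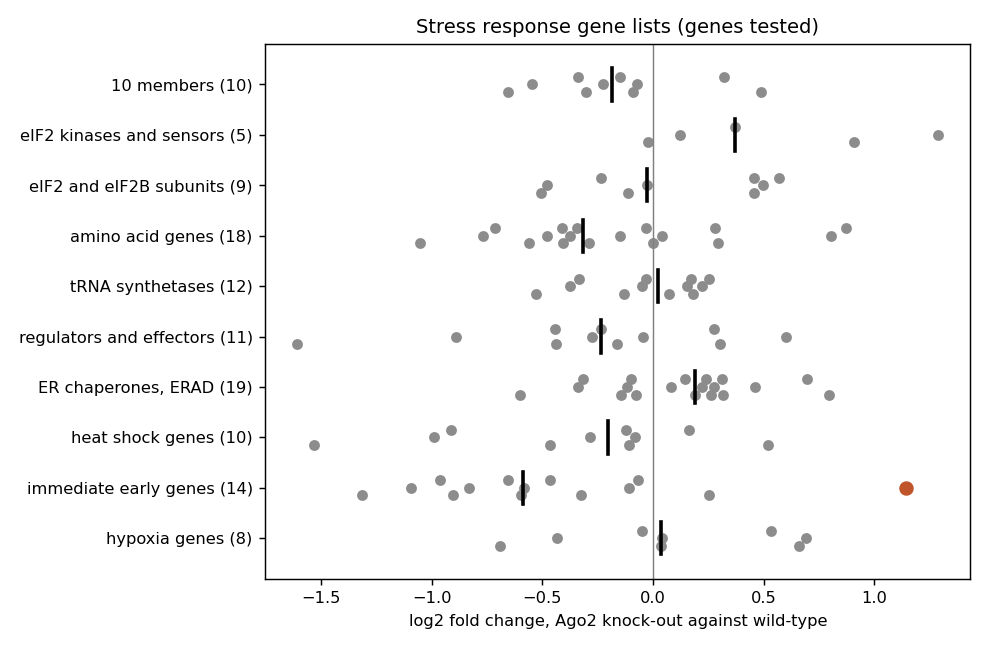
Log2 fold change, ΔAgo2 against wild-type tumors, of every tested gene of the 10 members and of 9 stress response lists (dots), with the list median as a bar and the number of genes tested in brackets. The only called gene is Klf6, the large dot at 1.15 among the immediate early genes, which was at 0.48 and not called with the GC trend removed, and list medians run from -0.59 to 0.37.

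Levels of different genes can be compared only per length. On the authors' TPM scale, the mean level in wild-type tumors fell from 428 TPM for Hspa5 and 319 for Atf4 through 142 for Asns and 123 for Xbp1. It went on through 37.8 for Ppp1r15a, 29.9 for Trib3, 23.8 for Atf3, 14.6 for Ddit3 and 11.8 for Eif2ak3 to 5.11 for Chac1. Neighbours in this order whose ranges over 4 tumors did not overlap were Atf4 and Asns, Xbp1 and Ppp1r15a, and Eif2ak3 and Chac1, and all other neighbours overlapped. In ΔAgo2 tumors Atf3, at 28.6 TPM, stood before Trib3, at 27.9, and Eif2ak3, at 19.9, before Ddit3, at 14.6, and these neighbours overlapped in both groups. Hspa5, at 622 TPM, and Atf4, at 353 TPM, no longer overlapped in ΔAgo2 tumors.

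The TPM scale turned the sign of some small differences. Atf4 averaged 353 TPM in ΔAgo2 and 319 TPM in wild-type tumors, although its CPM mean was lower in ΔAgo2 tumors. With limma on log2(TPM + 1), 6 members were above and 4 below 0, with a median of 0.04 beside 0.18 over all genes, and none was called. Wild-type tumor 4 was the highest for the same 5 members, Atf4, Atf3, Ddit3, Ppp1r15a and Trib3, in TPM as in CPM. Xbp1, the steadiest member in CPM, ran from 84.8 to 155 TPM and was not the steadiest on this scale, where Atf4 ran from 283 to 416 TPM. Chac1 in ΔAgo2 tumor 1, above all wild-type tumors in CPM, was at 4.84 TPM, inside the wild-type range of 4.41 to 5.47 TPM.

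Marker levels of some cell types differed between the groups. For muscle and keratinocyte markers, wild-type tumor 3 held the extreme sum. All 8 skeletal muscle markers were below 0 in ΔAgo2 tumors, and none was called. Their summed level was 3851 CPM in wild-type tumor 3 and 273, 366 and 531 CPM in wild-type tumors 1, 2 and 4. In ΔAgo2 tumors it was 51.7 to 224 CPM. The summed level of 7 fibroblast markers was 4859 to 7193 CPM in wild-type and 2213 to 4592 CPM in ΔAgo2 tumors, most of it from Col3a1. Of the 7, 5 were below 0 and 2, Pdgfra at 0.68 and Dcn at 0.16, were above, and none was called. All 7 keratinocyte markers were above 0, with sums of 11.0 to 562 and of 428 to 839 CPM. The lowest sums were those of wild-type tumors 3 and 4, at 11.0 and 166 CPM. Wild-type tumors 1 and 2, at 535 and 562 CPM, lay inside the ΔAgo2 range. Krt10 of this list was called, at 2.06 ± 0.48 (SE, edgeR adjusted p = 0.0460). Sums overlapped between groups for 6 pan-leukocyte markers, at 592 to 1051 and 610 to 1006 CPM, and for 7 macrophage markers, at 1555 to 1816 and 1041 to 2671 CPM, the last in ΔAgo2 tumor 1. Of the leukocyte markers 4 of 6 were above 0, with a median log2 fold change of 0.44 and no call, and the groups did not overlap for Ptprc (CD45), at 1.12 (edgeR adjusted p = 0.0785), and Itgb2, at 0.37 (adjusted p = 0.209). For 8 B and plasma cell markers, 5 of which were tested, sums were 202 to 327 and 156 to 214 CPM. Most of that sum was Sdc1, which other cells express too, at 189 to 318 and 148 to 201 CPM. The highest other value of that list was 17.3 CPM, for Ighm, and of the 5 tested 3 were above 0. The carcinoma markers Krt8 and Krt18 were present in every tumor, with Epcam at most 4.36 and Cdh1 at most 14.0 CPM. All 4 carcinoma markers were above 0, with a median of 0.84 and no call, and the groups did not overlap for Cdh1, at 1.38 (edgeR adjusted p = 0.0628). Cdh1, at 2.50 and 2.44 CPM, and Epcam were lowest in wild-type tumors 3 and 4, the tumors with the lowest keratinocyte sums. Krt8 and Krt18 were lowest in wild-type tumor 1. Which cells the Cdh1 and Epcam counts came from was not tested. The part of cell makeup in the values of the 10 genes was not tested.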

How the data were processed

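Polyadenylated RNA of 8 tumors was sequenced as paired 100-base reads from stranded libraries. Raw counts per gene, whole and not normalized, were deposited by the authors. TPM values, per gene length and with the same sum in each library, were deposited too. Their processing notes name STAR and mm10. The strand setting, annotation and handling of reads with several matches are not given in the sources used here. Identifiers were matched to GENCODE M21, 99.29% with their version. In R 4.3.3 with edgeR 4.0.16, genes were filtered by filterByExpr, scaled by TMM and compared by the quasi-likelihood test without covariates, with Benjamini-Hochberg adjustment at 0.05. CPM used TMM-scaled totals. The labels call the samples biological replicates. The members and lists were chosen with earlier results of these data known, and the lists come from general knowledge. Named were the members, the sensors, any called gene of the other lists or, if none, their 2 lowest adjusted p, and Ago2. Further genes appear only with promoter elements or as markers. Alternatives used DESeq2 1.42.0, limma 3.58.1, other scalings and filters, GC and length trends, thinning, the replicate block and tumors left out. The procedure was tested on simulated data. Depth ran from 7903288 to 268564145 counts, and 3 counts, the limit that a count of 0 allows, equal 0.430 CPM in the shallowest library and cover counting error only. A 95% interval belongs to each log2 fold change.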

Additional observations from a re-analysis of the deposited data

Results flagged for a closer look

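Among 62 groups of 4 tumors tested for a value far from the others, 4 were flagged, and about 3.1 would be by chance. In wild-type tumor 4, Atf4 stood at 487 CPM, while the other 3 wild-type tumors had 232 to 241. In ΔAgo2 tumor 1, Atf4 stood at 403 CPM, while the other 3 had 228 to 254. In wild-type tumor 4, Ppp1r15a stood at 74.5 CPM, beside 32.4 to 36.9 in the others of its group. In ΔAgo2 tumor 3, Hspa1a, the inducible Hsp70 gene, stood at 6.27 CPM, beside 3.73 to 3.86 in the others.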

How the results depend on the processing

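The number of genes called over the whole table, 560, became 2292 in DESeq2, 4476 in limma voom, 983 without a count filter, 1199 with the length trend removed, 185 in limma on log2(TPM + 1), and 88 to 1793 when 1 tumor was left out. The lowest of these counts came without ΔAgo2 tumor 4 and the highest without ΔAgo2 tumor 1. Of the members, voom called 1 higher and 2 lower, beside 4476 of all 16061 genes tested, and leaving out 1 tumor called 0 or 1 lower. With 4 replicate numbers the correlations of same-numbered tumors were -0.24, 0.10, -0.04 and -0.29, so the numbers mark no pairs. The replicate block called 70 genes, and 314 with the GC trend removed, and no member in either. The sign of the log2 fold change turned for Atf3 with total counts (0.042), voom (0.35), the block (0.25), the block and GC trend (0.28), and limma on TPM (0.41), and without wild-type tumor 4 and ΔAgo2 tumor 1 (0.59). It turned for Atf4 with the GC trend (0.22), the block and GC trend (0.24), TPM (0.17), and without both tumors (0.01). It turned for Trib3 with the GC trend (0.17) and with the block too (0.19), and for Hspa5 under these (-0.037 and -0.023). On TPM it turned for Ddit3 (0.013), Xbp1 (0.064) and Eif2ak1 (0.20). Eif2ak1 also turned with total counts (0.037) and no filter (0.031), and Ern1 with the length trend (-0.21). Leaving out 1 tumor gave -0.37 to 0.58 for Atf3, -0.32 to 0.26 for Atf4, -0.44 to 0.12 for Ddit3, -0.091 to 0.086 for Eif2ak1 and -0.13 to 0.31 for Ern1. The causes were not tested. The 2 alternatives on TPM and without both tumors were chosen after seeing the data. No stress response list other than the immediate early genes had a call in the reported comparison. Over all alternatives the calls of these lists ran up to 10 of 18 amino acid genes in voom. Of the marker lists only the keratinocyte markers had a call in the reported comparison, Krt10. Low counts in wild-type tumor 4, such as 25 for Chac1, limit precision.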
